A study of Homo sapiens with 17 samples.

Results

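Genes of intestinal differentiation were examined in SW480 cells, a line from a human colon adenocarcinoma. A control line was compared with a line depleted of mutant p53 (mutp53), each before and after exposure to TNF-α. The 9 genes, VIL1, KRT20, CDX1, CDX2, HNF4A, MUC2, TFF3, LGALS4 and FABP1, were taken by symbol from the 26457 RefSeq genes listed in the table. VIL1 was selected on its fall in mutp53-depleted cells at 16 h, so that its levels in that comparison describe why it is here and carry no test. The other 8 genes were added as companions with earlier results of the same libraries known. Some of them carry the identity of the intestinal lineage, some build the mature cell, and some gave no signal in this line.

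mRNA-seq libraries were made from 4 groups with 2 biological replicates each, lettered A and B. All cells were SW480 cells that stably carry a doxycycline-inducible short hairpin, against LacZ in the control line and against p53 in the mutp53-depleted line, and both lines received doxycycline at 1 µg/ml. Each line was sampled before TNF-α (0 h) and after 16 h with TNF-α at 12.5 ng/ml. The control and depleted cells are separate lines, so that the hairpin and any other difference between the lines cannot be told apart, and whether either line is a single clone is not given in the sources used here. The libraries held 6108488 to 13809578 reads on genes each, and replicate A was the larger library in every group. A normalized read is a read multiplied by 1 factor per library that brings all libraries to the same total, and 1 read was worth 0.67 to 1.52 normalized reads.

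The epithelium of the gut is renewed from stem cells at the base of the crypts, whose daughters mature as they move towards the lumen into absorptive enterocytes, mucus-filled goblet cells, hormone-secreting enteroendocrine cells and Paneth cells. Homeobox factors of the CDX family set intestinal identity, and HNF4A, a nuclear receptor, drives enterocyte genes together with them. The products of mature cells include villin (VIL1), which bundles actin in the microvilli of the brush border, keratin 20 (KRT20), galectin 4 (LGALS4), the liver-type fatty acid binding protein (FABP1), and the goblet cell products mucin 2 (MUC2) and trefoil factor 3 (TFF3).

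Promoter sequence from RefSeq (GRCh38.p14) was at hand for 6 of the 9 genes, in 7 entries because HNF4A has 2 starts; entries for VIL1, CDX1 and TFF3 were not used here. The 250 bases before the start are shown, 5′ to 3′ on the strand of the gene, for the lineage factors HNF4A and CDX2, of which HNF4A was lower in depleted cells. They are also shown for MUC2, which rose with TNF-α in control cells, and for FABP1, which had no reads. Capitals mark matches, on either strand, to 4 short motifs. CDX factors bind TTTAT, and GATA factors bind AGATAA. One arm of the site of HNF4A reads CAAAGTC, and the TATA box was searched as TATAAA. The same box on the opposite strand also holds the CDX motif. The upstream HNF4A start lies at chr20:44355449-44355698 (+ strand), the downstream one at chr20:44400989-44401238 (+), CDX2 at chr13:27969316-27969565 (−), MUC2 at chr11:1074624-1074873 (+) and FABP1 at chr2:88128063-88128312 (−).
HNF4A upstream start: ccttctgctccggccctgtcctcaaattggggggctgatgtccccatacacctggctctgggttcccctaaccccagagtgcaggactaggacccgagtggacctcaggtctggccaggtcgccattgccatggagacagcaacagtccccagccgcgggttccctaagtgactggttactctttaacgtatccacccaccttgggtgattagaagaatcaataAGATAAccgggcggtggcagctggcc
HNF4A downstream start: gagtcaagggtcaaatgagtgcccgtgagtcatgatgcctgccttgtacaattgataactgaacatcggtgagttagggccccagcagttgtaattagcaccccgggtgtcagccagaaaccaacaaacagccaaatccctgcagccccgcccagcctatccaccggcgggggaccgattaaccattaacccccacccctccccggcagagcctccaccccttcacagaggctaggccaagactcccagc
CDX2: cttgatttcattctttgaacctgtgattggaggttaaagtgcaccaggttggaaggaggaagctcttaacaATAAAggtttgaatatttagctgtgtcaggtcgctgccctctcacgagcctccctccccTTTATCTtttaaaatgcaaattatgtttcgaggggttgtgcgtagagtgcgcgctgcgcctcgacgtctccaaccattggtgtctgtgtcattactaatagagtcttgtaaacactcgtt
MUC2: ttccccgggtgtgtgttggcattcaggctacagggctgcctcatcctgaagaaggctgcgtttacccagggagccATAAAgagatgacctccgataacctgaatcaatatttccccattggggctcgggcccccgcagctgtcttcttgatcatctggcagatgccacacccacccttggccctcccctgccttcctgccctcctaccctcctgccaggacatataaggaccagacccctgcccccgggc
FABP1: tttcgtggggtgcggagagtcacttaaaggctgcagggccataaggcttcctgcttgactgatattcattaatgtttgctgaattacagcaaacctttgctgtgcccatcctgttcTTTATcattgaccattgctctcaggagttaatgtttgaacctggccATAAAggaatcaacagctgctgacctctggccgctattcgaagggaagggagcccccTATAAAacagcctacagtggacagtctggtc

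Counting back from the base before the start (−1), AGATAA stood at −26 before the upstream HNF4A start, and no match was found before the downstream one. CDX2 held TTTAT at −179 on the antisense strand and at −120 on the sense strand, the latter overlapping an antisense AGATAA at −119. MUC2 held TTTAT at −175 (antisense). FABP1, a gene with no reads here, held the most matches of these windows, TTTAT at −134 (sense), −88 and −30 (antisense) and TATAAA at −31, the last 2 overlapping. The KRT20 window held 3 matches to TTTAT and the LGALS4 window none to any motif. In windows of the same size before 35116 RefSeq starts, TTTAT was found in 32.7%, AGATAA in 9.17%, CAAAGTC in 2.91% and TATAAA in 10.7%, so that the commonest match is also common in promoters at large. The reads were counted over the exons of 1 RefSeq entry per gene, which does not separate transcripts from the 2 HNF4A starts.

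3 of the 9 genes were silent in SW480 cells, with silence taken as no more than 3 reads in any library. CDX1, a homeobox factor of the intestine (NM_001804; hg19 chr5:149546344-149564121), TFF3, the trefoil peptide of goblet cells (NM_003226; chr21:43731777-43735706), and FABP1, which binds fatty acids in enterocytes (NM_001443; chr2:88422508-88427650), had 0 reads in all 8 libraries. Genes without a read are common, since 18934 of all 26457 genes listed had at least 1 read over the 8 libraries. A count of 0 over the 8 libraries together (a limit of 3 reads in their sum) allows up to 0.0229 reads per kilobase and 1000000 reads for CDX1, 0.0386 for TFF3 and 0.0728 for FABP1, for counting error only. A further 2 genes had a few reads and stayed below the level of testing, a mean of 2.5 normalized reads over the 8 libraries. KRT20 (NM_019010; chr17:39032141-39041495) had 0 and 1 read in control cells at 0 h, 0 and 0 at 16 h, 1 and 2 in depleted cells at 0 h and 4 and 7 at 16 h. LGALS4, a galectin of the gut lining (NM_006149; chr19:39292311-39303740), had 3 and 0, 6 and 0, 1 and 1, and 3 and 0 reads in the same order. All 3 libraries without an LGALS4 read were replicate B, the smaller library of its group. The 4 genes that could be tested were CDX2, HNF4A, VIL1 and MUC2.

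**Figure D1:**
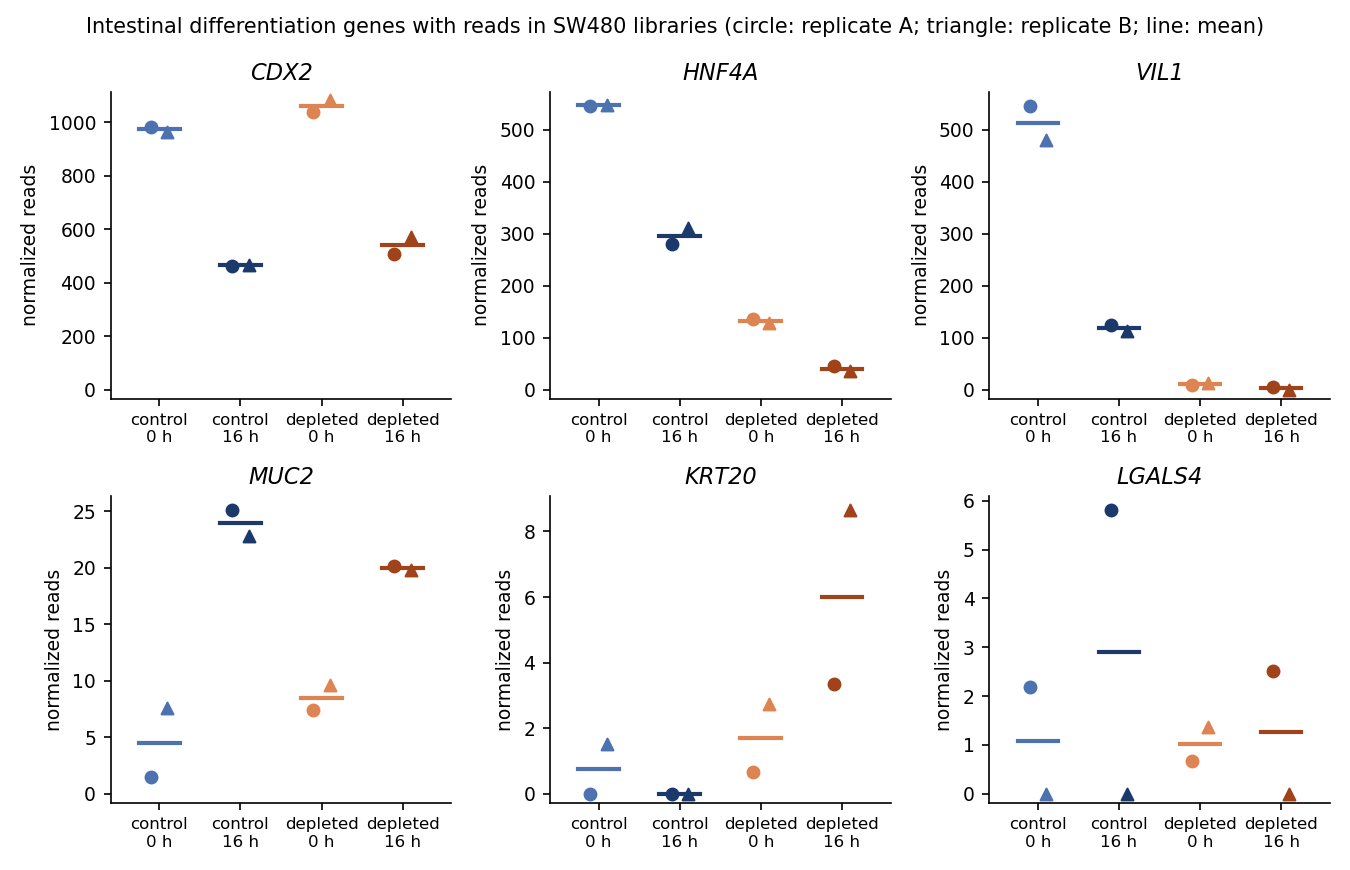
Normalized reads (y axis, from 0) of the 6 genes with reads, in control and mutp53-depleted cells at 0 h and 16 h of TNF-α; circles are replicate A, triangles replicate B and lines the mean of both. CDX2 lies near 1000 at 0 h in both lines, VIL1 lies at 480.2 and 545 only in control cells at 0 h, and KRT20 and LGALS4 stay below 9 throughout.

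In normalized reads per kilobase and 1000000 reads, the scale on which genes can be compared, control cells at 0 h had 44.8 of CDX2, 20.4 of VIL1 and 12.4 of HNF4A, and the ranges of the 2 libraries did not overlap between neighbours in this order. LGALS4 (0.093), MUC2 (0.0569) and KRT20 (0.0455) followed with ranges that overlapped. The order changed with each condition, since VIL1 passed from the second to the third place in control cells at 16 h (CDX2 21.4, HNF4A 6.71, VIL1 4.72) and in depleted cells at 0 h (48.8, 2.99 and 0.419). In depleted cells at 16 h the level of VIL1 was 0.1, below HNF4A (0.922), KRT20 (0.361) and MUC2 (0.251), and its range overlapped that of LGALS4 (0.108). CDX2 was the highest of the 9 genes in all 4 groups.

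CDX2, the homeobox factor that specifies the intestine (NM_001265; hg19 chr13:28536205-28543505, − strand), did not pass the test for depletion at 0 h and was lower after TNF-α in both lines. Control cells had 981 and 965 normalized reads at 0 h and 462 and 467 at 16 h. Depleted cells had 1038 and 1082 at 0 h and 509 and 569 at 16 h. The 0 h and 16 h libraries were well apart in each line, whereas the lines lay close to each other at each time. At 0 h the depleted cells differed by 0.12 on the log2 scale (standard error (SE) 0.08, limma adjusted p = 0.215), and at 16 h the value was 0.21, given as a description. The genes around CDX2 had a median difference of 0.16 at 0 h and 0.17 at 16 h, taken over 51 neighbouring tested genes. TNF-α lowered CDX2 2.10-fold in control cells (973 ± 11.4 to 464 ± 3.21 normalized reads, mean ± SD, n = 2; log2 −1.07, limma adjusted p = 1.1e-08). In depleted cells the fold was 1.97 (1060 ± 31 to 539 ± 42.5; log2 −0.98, limma adjusted p = 4.83e-08), which lies just under the required 2-fold. The 2 responses differed by 0.09 (SE 0.11, limma adjusted p = 0.807 for the interaction).

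HNF4A (NM_001287183; hg19 chr20:42984441-43061485, + strand) was lower in depleted than in control cells and lower after TNF-α in both lines. Control cells had 546 and 547 normalized reads at 0 h and 280.35 and 310.1 at 16 h. Depleted cells had 135 and 128 at 0 h and 45.3 and 35.8 at 16 h, so that no 2 groups overlapped. At 0 h HNF4A was 4.16-fold lower in depleted cells (547 ± 0.304 against 131 ± 5.54; log2 −2.05, SE 0.14, limma adjusted p = 1.24e-09). At 16 h, given as a description, it was 7.28-fold lower. The median difference of its neighbours was 0.04 at 0 h and −0.04 at 16 h. With TNF-α, HNF4A was 1.85-fold lower in control cells (log2 −0.89, limma adjusted p = 9.86e-05), short of the 2-fold required of a call, and 3.24-fold in depleted cells (log2 −1.68, limma adjusted p = 5.46e-08). The difference of these 2 responses was −0.79 on the log2 scale (SE 0.20) and passed the threshold (limma adjusted p = 0.0362). This call is not stable: over the 17 alternatives the adjusted p ranged from 0.0105 to 0.147, and it was lost with DESeq2, without the filter on low values, with the median of the neighbouring genes removed, and on leaving out any library except replicate A of depleted cells at 16 h.

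VIL1 (NM_007127; hg19 chr2:219283838-219314248, + strand) was nearly lost from depleted cells. Control cells had 545 and 480.2 normalized reads at 0 h, from 751 and 317 reads, and 125 and 112 at 16 h, from 129 and 79 reads. Depleted cells had 8.71 and 12.3 at 0 h, from 13 and 9 reads, and 5.03 and 0 at 16 h, from 6 and 0 reads. Every depleted library was thus below every control library at either time. At 0 h, the libraries that did not serve to choose it, VIL1 was 48.7-fold lower by the group means (513 ± 45.8 against 10.5 ± 2.57, n = 2; log2 −5.49, SE 0.51, limma adjusted p = 6.17e-08). This test is not fully independent of the choice, since the SE comes from a fit of all 8 libraries and both times compare the same lines. The ratio of the summed reads was 52.9, with an exact 95% interval of 34.8 to 84.8 for counting error only. VIL1 was the gene with the 11th lowest log2 fold change of the 14800 tested at 0 h, and its 51 neighbours had a median of −0.13. Because these are bulk libraries, fewer cells with the transcript and less transcript per cell cannot be told apart.

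The remaining values of VIL1 are descriptions. At 16 h the mean was 118 ± 8.71 in control and 2.52 ± 3.56 in depleted cells, and the ratio of the summed reads was 40 with an interval of 18.1 to 110.2. The median over neighbours was −0.12. Control cells had 4.33-fold less VIL1 with TNF-α than without (log2 −2.10) and depleted cells 4.19-fold less (log2 −2.21), the latter resting on 22 reads at 0 h and 6 at 16 h. At 16 h the depleted replicates differ, so that without replicate B the change with TNF-α in depleted cells was −0.92 and without replicate A −3.51, and the depletion value at 16 h, −5.60, was −4.31 and −6.90. The ratio of the summed reads was 4.38 (3.77 to 5.1) in control and 3.31 (1.3 to 9.97) in depleted cells, so that the second interval holds the first.

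MUC2, the gel-forming mucin of goblet cells (NM_002457; hg19 chr11:1074875-1104416, + strand), was scarce and rose with TNF-α in control cells. These had 1.45 and 7.57 normalized reads at 0 h, from 2 and 5 reads, and 25.1 and 22.8 at 16 h, from 26 and 16 reads. Depleted cells had 7.37 and 9.6 at 0 h, from 11 and 7 reads, and 20.1 and 19.75 at 16 h, from 24 and 16 reads. The 16 h libraries were above the 0 h libraries in each line, and the lines overlapped at 0 h. In control cells the mean rose 5.31-fold (log2 2.44, SE 0.51, limma adjusted p = 0.00133), and the ratio of the summed reads was 7.04 with an interval of 3.13 to 18.6. The size of the rise depends on the 0 h replicates: it was 1.54 on the log2 scale without replicate A (limma adjusted p = 0.0255) and 3.35 without replicate B (limma adjusted p = 0.000158). In depleted cells the mean was 2.35-fold higher at 16 h (log2 1.15, limma adjusted p = 0.104), and the ratio of the summed reads was 2.46 (1.38 to 4.57). edgeR passed this second comparison (quasi-likelihood adjusted p = 0.0278, exact test adjusted p = 0.0101), and the limma adjusted p was 0.0319 or 0.0449 without replicate A or B of control cells at 0 h. The difference of the 2 responses was −1.29 (SE 0.72, limma adjusted p = 0.472). Depletion at 0 h gave 1.04 on the log2 scale (SE 0.51, limma adjusted p = 0.0946), while the genes around MUC2 were lower by a median of 0.61 (−0.61). It passed without replicate B of control cells at 0 h (1.94, limma adjusted p = 0.00467) and with the median of the neighbours removed (1.65, limma adjusted p = 0.00973). At 16 h depleted cells had −0.25 relative to control, a description.

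**Figure D2:**
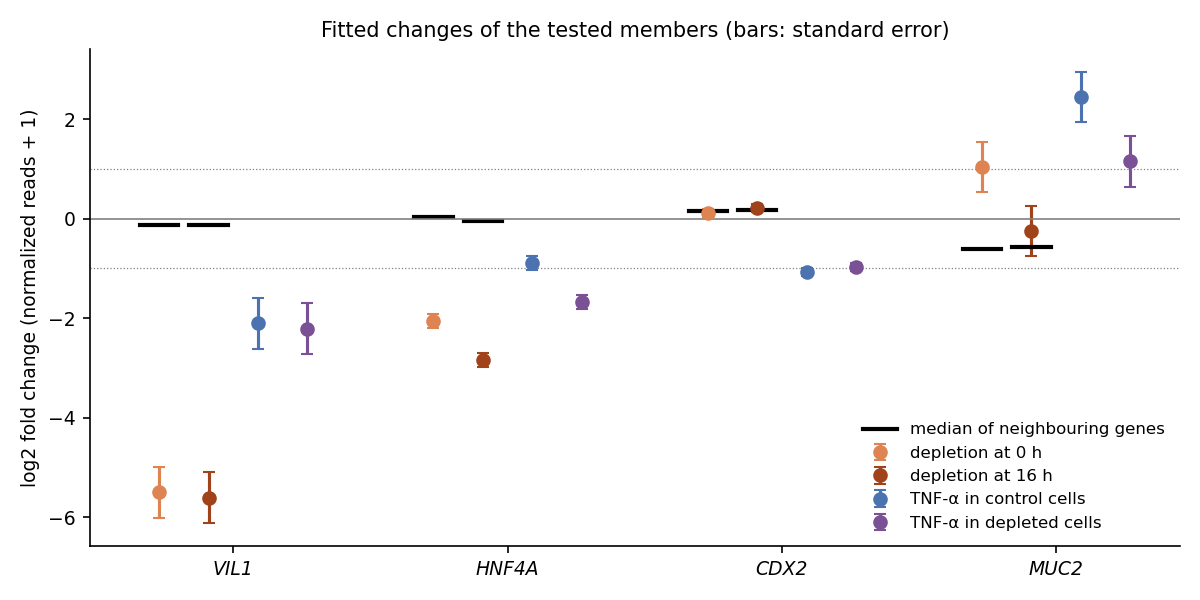
Log2 fold change (y axis, normalized reads + 1) of the 4 tested genes for depletion at 0 h and 16 h and for TNF-α in control and depleted cells, with bars for the standard error, black dashes for the median of 51 neighbouring genes and dotted lines at 2-fold. VIL1 lies at −5.49 and −5.60 for depletion, HNF4A at −2.05 and −2.84, CDX2 beside its neighbours near 0, and MUC2 above 0 for TNF-α in both lines.

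Of the 4 tested genes, HNF4A and VIL1 were called lower in depleted cells at 0 h (adjusted p under 0.05 and at least 2-fold) and none higher, where 5.89% of all tested genes were called higher and 9.55% lower. At 16 h the same 2 genes were past these limits, beside 10.2% lower and 5.03% higher of all genes, and nothing is read from this since VIL1 was chosen there. With TNF-α in control cells CDX2 was called lower and MUC2 higher, and VIL1 was past the limits as a description, where 4.27% and 2.97% of all genes were called lower and higher. VIL1 was not past them there with a pseudocount of 0.1 (limma adjusted p = 0.203), nor without replicate A at 0 h (log2 −2.01) or replicate B at 16 h (−2.03). In depleted cells HNF4A was called lower and VIL1 was past the limits with both replicates but not without replicate B at 16 h, nor with edgeR's quasi-likelihood test (adjusted p = 0.0582) or DESeq2 (adjusted p = 0.0649), beside 4.5% lower and 1.86% higher. For the interaction HNF4A passed, beside 2.86% of all genes. The comparisons of depletion and of TNF-α share libraries and are not independent of each other.

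Of all 26457 genes listed, 18934 had at least 1 read over the 8 libraries, and the silent share of all genes is not given here. Beyond the 9 genes, 118 others were listed under 6 headings of intestinal biology, and 62 of them were silent, 31 with 0 reads throughout. Genes without a read are common among all genes too. The counts of silent genes, here and for each list below, are therefore not read as particular to intestinal genes. Of the 48 that could be tested, depleted cells at 0 h had 15 called lower and 4 higher, beside 9.55% and 5.89% of all tested genes, with a median log2 fold change of −0.08 against 0.03 over all tested genes. At 16 h the counts were 15 lower and 3 higher, beside 10.2% and 5.03%, with a median of −0.43 against −0.01. With TNF-α, 5 were called lower and 1 higher in control cells, beside 4.27% and 2.97% (median −0.29 against −0.05), and 7 lower and 2 higher in depleted cells, beside 4.5% and 1.86% (−0.34 against −0.06). The lists are small and were drawn up with results of these libraries known.

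**Figure D3:**
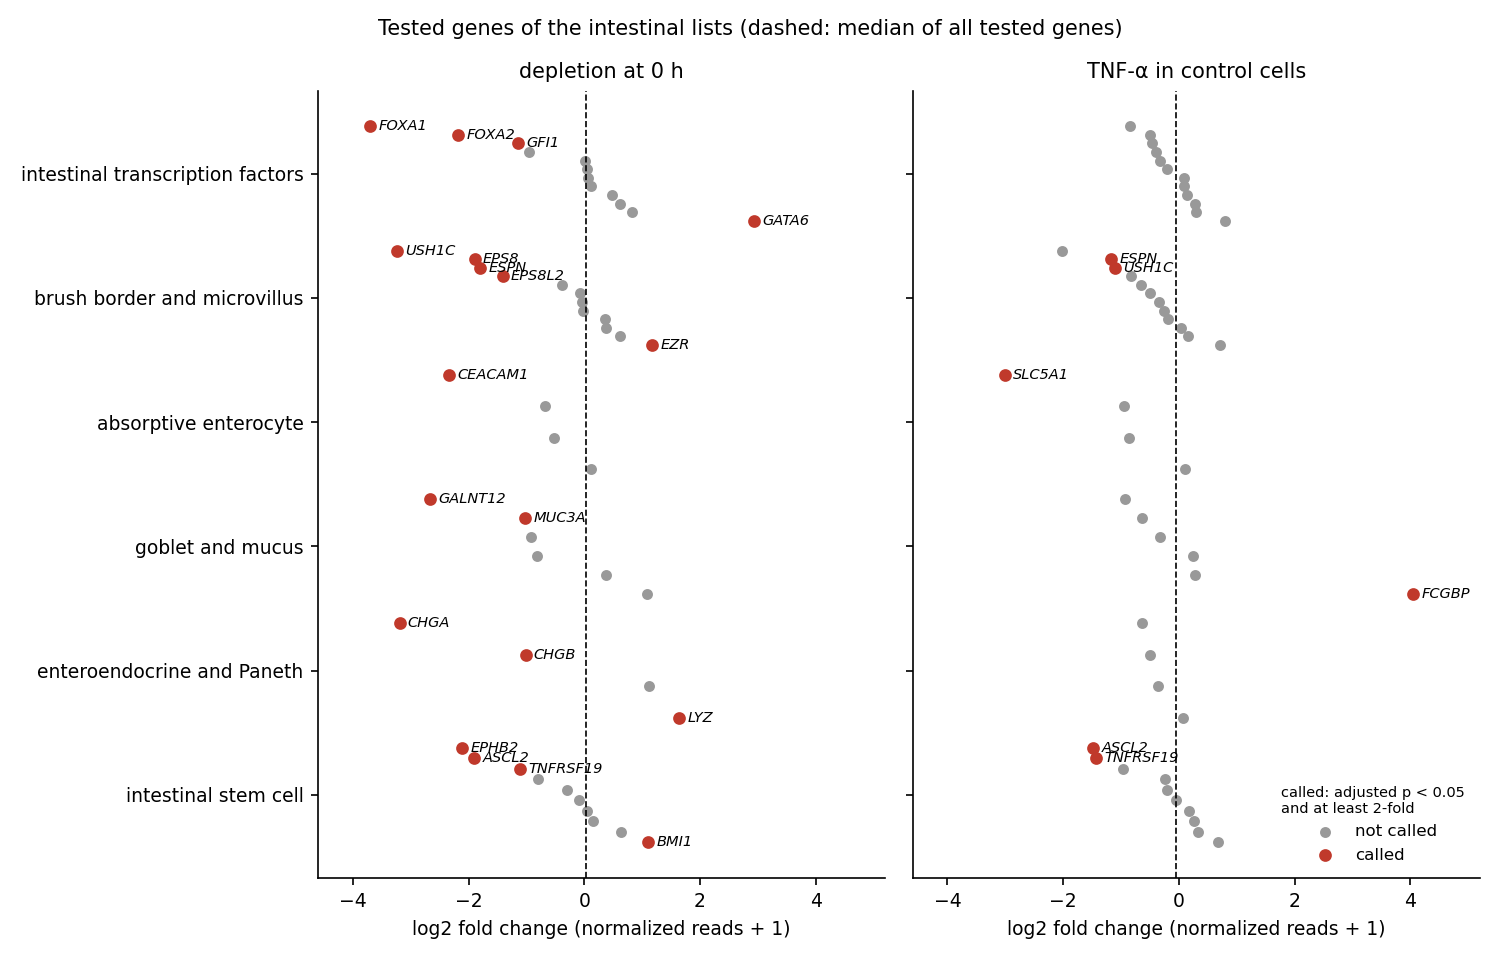
Log2 fold change (x axis, normalized reads + 1) of the tested genes of 6 intestinal lists for depletion at 0 h (left) and TNF-α in control cells (right), 1 point a gene, red and named where called, with the median of all tested genes as a dashed line. Called genes lie mostly to the left at 0 h (15 lower, 4 higher), and 6 genes are named for TNF-α, FCGBP alone to the right.

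Among 20 other transcription factors of the intestine, 8 were silent, among them GATA4, a zinc finger factor of the small intestine, and ATOH1 and SPDEF, which drive secretory cells. Of the 12 tested, calls at 0 h were 3 lower and 1 higher. FOXA1, a forkhead factor that opens chromatin, had 27.6 and 31.8 normalized reads in control cells and 1.34 and 1.37 in depleted cells (log2 −3.70, limma adjusted p = 2.32e-06). FOXA2, its close relative, went from 93.6 and 97 to 17.4 and 23.3 (−2.19, limma adjusted p = 1.52e-06). GFI1, a repressor in secretory cells, was lower by −1.14 on the log2 scale (limma adjusted p = 5.92e-05), although the fall was under 2-fold without replicate A of control cells. GATA6, a zinc finger factor of the gut, was higher, from 5.81 and 9.09 to 59.6 and 64.4 (2.93, limma adjusted p = 1.64e-06). None of the 12 was called with TNF-α in control cells by limma, by either edgeR test or by DESeq2. In limma 4 had an unadjusted p under 0.05, and 2 of them also an adjusted p under 0.05, at less than 2-fold.

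The list of the brush border, the microvilli in which villin works, had 19 genes, of which 6 were silent and 12 tested. Calls at 0 h were 4 lower and 1 higher. USH1C (harmonin), a scaffold of the links between microvilli, went from 150.2 and 171 normalized reads in control to 18.8 and 13.7 in depleted cells (log2 −3.24, limma adjusted p = 5.41e-08). EPS8, which caps actin at the tips of microvilli, went from 289 and 276 to 71 and 79.5 (−1.89, limma adjusted p = 1.05e-07), and ESPN (espin), an actin bundler like villin, from 459 and 448 to 118 and 141 (−1.81, limma adjusted p = 6.61e-09). The genes around EPS8 had a median difference of 1.19 at 0 h, opposite in sign to EPS8 itself. EPS8L2, a relative of EPS8, was lower by −1.41 (limma adjusted p = 2.98e-11), which became −0.93 with the median of its neighbours removed. EZR (ezrin), which ties actin to the membrane, was higher, from 3250 and 3045 to 6957 and 7248 (1.17, limma adjusted p = 3.33e-10), and is named after its values were seen, as the 1 gene called higher. With TNF-α in control cells ESPN fell from 459 and 448 to 197 and 205 (−1.17, limma adjusted p = 4.35e-06). USH1C fell to 58 and 93.9 (−1.11, limma adjusted p = 0.0095), a call that was lost without replicate B at 0 h or replicate A at 16 h.

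In the list of absorptive enterocytes 20 of 28 genes had 3 reads or fewer, including the sucrase-isomaltase gene SI at 0 reads, and 4 were tested. CEACAM1, an adhesion molecule of the apical membrane, was called lower at 0 h, from 53 and 47 normalized reads to 18.8 and 4.11 (log2 −2.34, limma adjusted p = 0.00064). SLC5A1, the sodium and glucose cotransporter of the brush border, had 10.9 and 12.1 in control libraries at 0 h and 0 and 1.42 at 16 h (−3.01, limma adjusted p = 0.00314, DESeq2 adjusted p = 0.0548). Goblet cell and mucus genes were 19, of which 11 were silent and 6 tested, 2 being lower at 0 h. GALNT12, which starts the glycosylation of mucins, went from 154 and 144 to 23.5 and 21.9 (−2.66, limma adjusted p = 5.24e-07). MUC3A, a membrane mucin, was lower by −1.03 (limma adjusted p = 0.0114), a call lost under several alternatives (−0.63 with its neighbours' median removed). FCGBP, a partner of MUC2 in mucus, rose with TNF-α in control cells from 1.45 and 0 to 29 and 21.3 (4.05, limma adjusted p = 0.000796). Its 0 h values lie near the floor. It was the 1 gene called in this comparison among the 6 tested, whose median was −0.04 against −0.05 over all tested genes, so that the list as a whole did not rise.

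Among 18 enteroendocrine and Paneth cell genes, 14 were silent and 4 tested. CHGA (chromogranin A), a granule protein, went from 34.1 and 31.8 normalized reads to 2.68 and 2.74 (log2 −3.19, limma adjusted p = 2.4e-05). CHGB (chromogranin B) was lower by −1.02 (limma adjusted p = 0.0139) and LYZ (lysozyme) higher by 1.63 (limma adjusted p = 0.0261), and both calls were lost with DESeq2. No gene of this list was called with TNF-α in control cells by limma, edgeR or DESeq2, and 0 had an unadjusted p under 0.05 in limma. Of 14 stem cell genes, 3 were silent and 10 tested. ASCL2, a factor of crypt stem cells, went from 1922 and 1906 to 582 and 449.74 at 0 h (−1.90, limma adjusted p = 6.23e-10), and EPHB2, a receptor of the crypt base, from 619 and 630.2 to 179 and 115 (−2.11, limma adjusted p = 1.5e-09). TNFRSF19 was lower by −1.11 (limma adjusted p = 2.05e-07) and BMI1, a Polycomb protein, higher by 1.10 (limma adjusted p = 8.75e-09), 0.78 with its neighbours' median removed. With TNF-α in control cells ASCL2 fell to 680 and 687 (−1.48, limma adjusted p = 3.81e-08) and TNFRSF19 by −1.44 on the log2 scale (limma adjusted p = 1.99e-08). Falls at 0 h were therefore counted both in lists of mature cells and in the list of stem cells. The list medians at 0 h were 0.06 for transcription factors, −0.05 for the brush border and 0.05 for enteroendocrine and Paneth cells. They were −0.60 for enterocytes, −0.865 for goblet cells and mucus and −0.20 for stem cells, against 0.03 over all tested genes.

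The genes whose pattern was most like that of VIL1 were found by Pearson's r of log2(normalized reads + 1) over the 8 libraries, among 13123 other genes with a mean of at least 10. They were VWA1 (r = 0.9952), MAPK13 (0.995), SEMA4F (0.9946), LRP8 (0.9946) and LOC113230 (0.9937). VWA1, a matrix protein, went from 308 and 117 in control cells (means at 0 h and 16 h) to 31.2 and 16.7 in depleted cells. HNF4A stood at rank 195 of this order (r = 0.971), CDX2 at rank 5912 (r = 0.1853) and MUC2 at rank 8412 (r = −0.46). For HNF4A the closest were EPS8L3 (0.9978), CBS (0.9974), SEMA3F (0.9968), PSPH (0.9964) and GALNT12 (0.9957), and VIL1 stood at rank 245. The 8 libraries form 4 groups, so that each r follows the order of 4 group levels and not 8 separate points. VIL1 spanned 7.71 on the log2 scale from its highest to its lowest group mean and HNF4A 3.73.

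**Figure D4:**
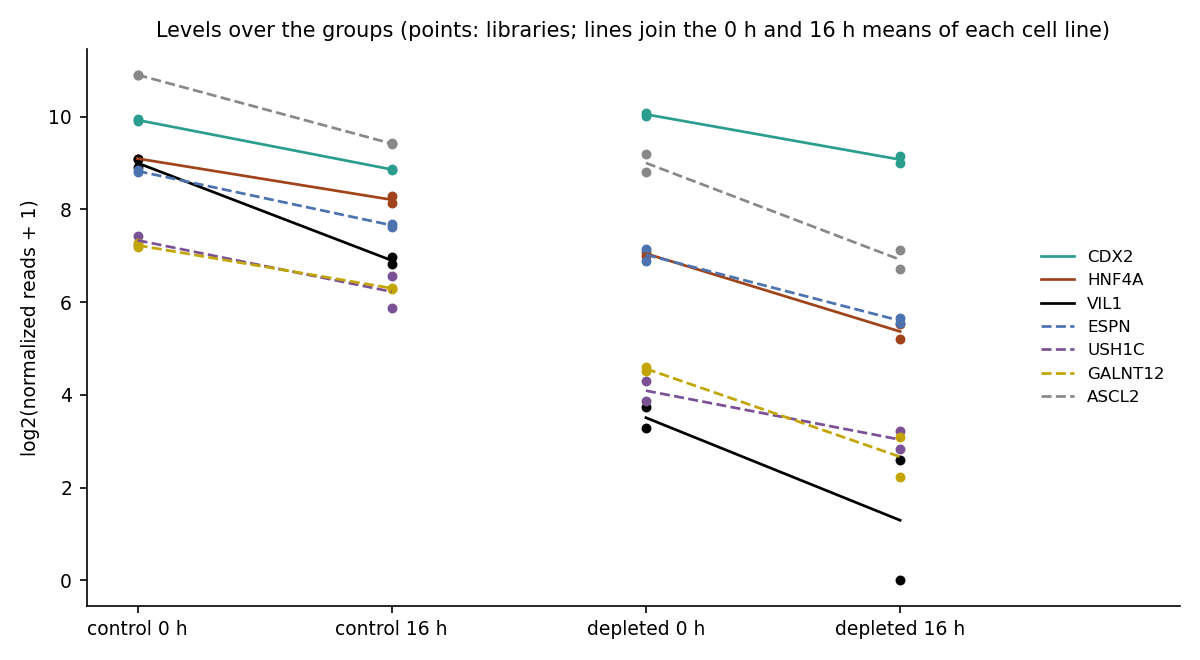
Level as log2(normalized reads + 1) (y axis) of CDX2, HNF4A and VIL1 (solid) and of ESPN, USH1C, GALNT12 and ASCL2 (dashed) in the 4 groups, with points for libraries and lines between the 0 h and 16 h means of each line. By group means all 7 genes are lower at 16 h than at 0 h in each line, and all except CDX2 are lower in depleted than in control cells at each time. The 4 dashed genes are among those called lower at 0 h, so that their fall with depletion is no separate result. ESPN, USH1C and ASCL2 are also among those called lower with TNF-α in control cells, so that their fall with TNF-α is none either. Called list genes with other patterns are not drawn: FOXA2 went from 95.3 to 115 with TNF-α in control cells, and GATA6 and EZR were higher in depleted cells.

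The libraries were checked for other cell types. All 6 epithelial markers were detected, and their summed level was 66929 to 71459 normalized reads in control cells at 0 h, 57955 to 58224 at 16 h, 52007 to 52156 in depleted cells at 0 h and 42771 to 43973 at 16 h. Within that sum EPCAM (log2 −1.29, limma adjusted p = 2.43e-10) and CLDN7 (−1.71, limma adjusted p = 4.95e-11) were lower in depleted cells at 0 h, and CDH1 fell with TNF-α in control cells (−2.51, limma adjusted p = 1.06e-10). Of 6 leukocyte markers 2 were silent and PTPRC was at 0 reads, and the sums were 45.5 to 59.5, 55.5 to 59, 69 to 72.7 and 85.2 to 85.5 in the same order of groups. Of 4 endothelial markers 2 were silent with KDR at 0, and the sums were 6.06 to 7.26, 5.69 to 6.77, 21.9 to 28.8 and 17.6 to 28.4. Of 6 fibroblast markers 3 were silent with DCN at 0, and the sums were 38.5 to 39.4, 29.9 to 32.9, 161 to 178 and 56.2 to 61.7. These 3 sums were higher in depleted than in control cells at each time, and their part in the results was not tested. Markers called higher in depleted cells at 0 h were the fibroblast genes PDGFRB (5.21 to 69.8 normalized reads, group means; log2 3.53, limma adjusted p = 9.95e-07) and COL1A1 (33.4 to 97; 1.51, limma adjusted p = 3.12e-05), the endothelial gene VWF (6.29 to 25.4; 1.84, limma adjusted p = 0.00638), and in the leukocyte list CD68 (20 to 44.1; 1.09, limma adjusted p = 0.00116) and LYZ, given above. With the neighbours' median removed COL1A1 was at 0.92, VWF at 0.89 and LYZ at 0.94, all under the 2-fold limit, and without replicate B of depleted cells at 0 h CD68 was at 0.92. The other tested leukocyte marker, CD14, went from 28 to 14.2 at 0 h (−0.89, limma adjusted p = 0.0791). With TNF-α in control cells CD14 was called lower (−1.21, limma adjusted p = 0.0375) and CD68 higher (1.08, limma adjusted p = 0.00314). The CD14 call was lost with DESeq2 (adjusted p = 0.152) and the CD68 call with a pseudocount of 5 (0.95). Of 6 hepatocyte markers, included because HNF4A and FABP1 also belong to the liver, 4 were silent with TTR at 0, and the sums (1039 to 1078, 4762 to 5116, 507 to 718 and 2324 to 2928) were nearly all SERPINA1, which rose with TNF-α in control cells (2.22, limma adjusted p = 1.37e-10).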

How the data were processed

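mRNA-seq reads of 4 groups of SW480 cells (2 libraries each) were aligned by the authors with STAR and counted over exons of RefSeq genes with HOMER, strand-specifically, and compared by the authors with edgeR. The methods name hg38, whereas the deposited table has hg19 gene coordinates, which are printed here. The deposited values are a signal, reads multiplied by 1 factor per library: 100% were whole reads within 0.02 after division by it. The authors' columns of log2 fold changes and p-values for 4 comparisons were not used. The deposited gene length (in bases) set levels per kilobase.

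The 14800 genes averaging 2.5 normalized reads or more were tested on log2(value + 1) with limma 3.58.1 (R 4.3.3), 4 group means, a trended variance and Benjamini-Hochberg adjustment over all of them. Calls needed adjusted p under 0.05 and 2-fold, for the interaction adjusted p alone. The added 1 pulls the fold change of low genes towards no change. Being taken on means of logs, it can still lie above or below the ratio of the group means. The limma p-values rest on 1 spread per gene, pooled over the 2 libraries of each of the 4 groups and moderated by the trend over all genes. A p-value can therefore depend on libraries outside its comparison. The scripts were tested on simulated data. edgeR 4.0.16 and DESeq2 1.42.0 were run on the recovered whole reads as alternatives, beside other filters, pseudocounts, scalings, left-out libraries, and removal of the median of 51 neighbouring genes from depleted libraries. Intervals of read ratios are exact binomial at 95%.

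The 9 genes and all lists (6 intestinal lists, 4 gene families and 5 sets of cell type markers) were chosen with earlier results of these data known. List genes named were up to 4 with the largest change called at 0 h and up to 3 called with TNF-α in control cells, and the 5 closest patterns to VIL1 and HNF4A. EZR, GSN, LGALS1, LGALS3 and the silent genes of the lists were named after their values were seen. The level of the hairpin's target is not reported here. Other assays of the series were not analysed here.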

Additional observations from a re-analysis of the deposited data

Results flagged for a closer look

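The effect of mutp53 depletion differed between 16 h and 0 h for HNF4A and for 6 genes of the intestinal lists, by limma's test of the difference itself (424 of 14800 genes passed it). Each value below is the log2 effect of depletion at 16 h less that at 0 h. It was −0.794 for HNF4A, described above with the alternatives under which it is lost.

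ELF3, an epithelial transcription factor, had −2.06 (adjusted p = 2.8e-05): its group means were 152 at 0 h and 265 at 16 h in control cells, against 166 and 69.03 in depleted cells (normalized reads). VDR, the vitamin D receptor, had −0.553 (adjusted p = 0.00313), and HES1, the Notch target that restrains secretory fate, had 0.849 (adjusted p = 0.00468), from 319 and 178 in control cells to 445 and 446 in depleted cells. These 3 genes passed under every alternative run. KLF5, a factor of crypt cells, had −0.502 (adjusted p = 0.0109), lost without replicate A of control cells at 0 h and without either replicate of depleted cells at 0 h. MYO1E, an unconventional myosin, had −0.553 (adjusted p = 0.022), lost with DESeq2, with the median of neighbouring genes removed and without 5 of the 8 libraries. CD44, an adhesion receptor of crypt cells, had 0.421 (adjusted p = 0.0293), lost without the filter on low values and without 7 of the 8 libraries.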

How the results depend on the processing

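Over the 17 or 18 alternatives of each comparison, the fall of VIL1 (−5.72 to −5.07) and of HNF4A (−2.09 to −2.01) at 0 h, of CDX2 (−1.08 to −1.02) and the rise of MUC2 (1.54 to 3.35) with TNF-α in control cells kept their direction and call. The VIL1 interaction (main −0.11) has no settled sign: it was 0.943 with a pseudocount of 5, 0.44 with edgeR's quasi-likelihood test, 0.384 with DESeq2, and without replicate B of depleted cells 0.119 (the 0 h library) or 1.186 (the 16 h library, with 0 VIL1 reads). Turned as well, with the median of neighbouring genes removed, were CDX2 depletion at 0 h (−0.041) and MUC2 depletion at 16 h (0.322). For the interaction, 0 of the 9 genes were called without the filter, with DESeq2 and with neighbours removed, in place of 1. With TNF-α in depleted cells DESeq2 called 1 of them in place of 2, and 5 list genes in place of 9, and without the filter 12 list genes in place of 6 were called in control cells (more genes tested). Leaving out 1 library gave −1.406 to 1.186 for the VIL1 interaction, 208 to 421 genes called for the interaction (main 424), 0 to 1 of the 9 genes and 3 to 6 list genes (main 6). The cause of these shifts was not tested. Same-lettered libraries of different groups share the letter and their relative size, replicate A being the larger in every group. The differences between A and B correlated between groups by −0.0417 to 0.117 across 13124 genes. A replicate block moved the interaction count from 424 to 559 and that of depletion at 0 h from 2285 to 2298. The main fit has no term for the letter, and whether same-lettered libraries share more was not tested. edgeR's exact test was not run for the interaction. MUC2, KRT20 and LGALS4 rest on few reads, which limits what can be detected for them.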

Other observations

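The relatives of the 9 genes by protein family were also counted. In the gelsolin and villin family, 6 of 7 relatives of VIL1 were tested, and limma, edgeR and DESeq2 called none of them at 0 h. In limma 3 had an unadjusted p under 0.05, and these 3 also had an adjusted p under 0.05, at less than 2-fold. Gelsolin itself (GSN) had 1102 and 1276 normalized reads in control and 1751 and 1855 in depleted cells at 0 h (log2 0.60, limma adjusted p = 5.11e-06, under 2-fold). VILL, the villin-like gene, was called lower with TNF-α in control cells, from 18.9 and 15.2 to 7.73 and 2.85 (−1.63, limma adjusted p = 0.0117), a call lost with DESeq2 (adjusted p = 0.119) and without replicate A at 0 h or replicate B at 16 h. The family had a median of 0.45 on the log2 scale at 0 h, against 0.03 over all genes, while VIL1 had −5.49.

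Among 10 other galectins 6 were silent, and of the 3 tested none was called at 0 h or with TNF-α in control cells by limma, edgeR or DESeq2. In limma the unadjusted p was under 0.05 for 3 and 2 of them in these comparisons. The adjusted p was under 0.05 for 3 and 1, at less than 2-fold. LGALS3 had 1491 and 1409 normalized reads and LGALS1 2695 and 2624 in control cells at 0 h, where LGALS4 had 2.18 and 0. Of 9 other fatty acid binding proteins 8 were silent, and FABP3 was lower at 0 h, from 181 and 120 to 63.7 and 78.2 (−1.05, limma adjusted p = 0.000418; −0.91 with the median of neighbouring genes removed). Of 5 simple epithelial keratins all were tested and 2 were higher at 0 h. KRT23 went from 3613 and 3595 to 10439 and 10356 (1.53, limma adjusted p = 2.91e-11) and KRT7 from 9.43 and 13.6 to 34.2 and 43.9 (1.69, limma adjusted p = 2.58e-05). KRT7 also rose with TNF-α in control cells, to 88 and 83.9 (2.82, limma adjusted p = 1.44e-07), where KRT20 had no read.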
